A study of Mus musculus with 11 samples.

Results

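The BCL2 family decides whether the outer membrane of the mitochondrion stays closed, and 10 of its genes were followed here in whole mouse kidney: Bcl2, Bcl2l1, Mcl1, Bcl2a1a, Bcl2a1b, Bcl2a1d, Bax, Bak1, Bcl2l11 and Bid. They were taken by symbol from a table of 25677 genes, all 10 were found, and all 10 passed the filter on low counts. RNA-seq libraries came from kidneys of 21-week-old female mice. The Ctr group (n = 3) was C57BL/6J, labelled C57B6. The Lpr group (n = 4) was MRL/lpr left without DNase I, and the DNase group (n = 4) was MRL/lpr given DNase I by daily intraperitoneal injection from week 17 until week 21. MRL/lpr mice develop spontaneous lupus nephritis and carry the lpr mutation of Fas, a death receptor, and both MRL/lpr groups carry it. C57BL/6J is another strain, so strain and disease cannot be told apart in any comparison with Ctr. The comparisons ask how the kidneys with nephritis differ from control kidneys, and whether DNase I, an enzyme that degrades the DNA of neutrophil extracellular traps, moves the treated kidneys.

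Members of the family act through direct contacts with each other. BCL2, BCL-XL (Bcl2l1), MCL1 and A1 (the Bcl2a1 genes) hold cells alive by binding the death-promoting members, while BAX and BAK (Bak1) are the effectors that open the outer mitochondrial membrane, after which cytochrome c leaves and caspases are switched on. BIM (Bcl2l11) and BID belong to the BH3-only group, which senses stress and either activates the effectors or occupies the pro-survival members, and BID also carries the signal from death receptors such as Fas to the mitochondrion. In kidney, BCL-XL and MCL1 are made by most cells, whereas A1 is mainly a gene of blood cells.

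The A1 genes are near-identical copies, which matters for every value given for them, so their sequences are shown before the values. All 3 lie on chromosome 9 of mm10: Bcl2a1d at chr9:88723285-88731914 on the minus strand, Bcl2a1a at chr9:88956900-88962419 and Bcl2a1b at chr9:89199209-89207827, both on the plus strand, each with 2 exons in GENCODE M21. Over their 516 coding bases, Bcl2a1a and Bcl2a1b were 97.9% identical, Bcl2a1a and Bcl2a1d 98.6%, and Bcl2a1b and Bcl2a1d 98.8%. Of the 12 coding positions at which the copies differ, 7 fall within coding bases 1 to 100, shown here from the start codon with the positions that differ in capitals.
Bcl2a1a: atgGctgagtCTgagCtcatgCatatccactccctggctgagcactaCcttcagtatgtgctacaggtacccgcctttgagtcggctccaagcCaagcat
Bcl2a1b: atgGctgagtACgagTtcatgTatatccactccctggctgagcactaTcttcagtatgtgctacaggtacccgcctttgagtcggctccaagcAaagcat
Bcl2a1d: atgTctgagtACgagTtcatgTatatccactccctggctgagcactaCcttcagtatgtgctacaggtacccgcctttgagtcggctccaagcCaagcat
A read of 100 bases that misses these positions can fit several copies. Of all 100-base windows in the annotated transcripts, 43.5% of those of Bcl2a1a, 56.8% of those of Bcl2a1b and 54.7% of those of Bcl2a1d also occur in another gene. How the counting treated such reads is not given in the sources used here, so the split of counts among the copies is uncertain, and their sum is reported beside them.

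The stretch in front of the A1 genes is also shared. In the RefSeq promoter windows of GRCm38.p6, which start 250 bases before the transcription start, the best aligned parts were 99.5% identical between Bcl2a1a and Bcl2a1b over 206 bases, 95.2% between Bcl2a1a and Bcl2a1d over 250 bases, and 96.1% between Bcl2a1b and Bcl2a1d over 206 bases. The letters GAGGAAGT, a form of the site bound by PU.1, a transcription factor of myeloid and B cells, were searched on both strands. They are shown in capitals with 80 bases before and 20 after, on the strand of each gene: chr9:88956736-88956843 for Bcl2a1a, chr9:89199045-89199152 for Bcl2a1b and chr9:88731927-88732034 for Bcl2a1d.
Bcl2a1a: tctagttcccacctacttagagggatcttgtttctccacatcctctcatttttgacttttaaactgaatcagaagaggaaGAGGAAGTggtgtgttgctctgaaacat
Bcl2a1b: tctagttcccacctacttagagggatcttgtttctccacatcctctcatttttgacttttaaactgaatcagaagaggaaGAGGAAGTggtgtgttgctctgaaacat
Bcl2a1d: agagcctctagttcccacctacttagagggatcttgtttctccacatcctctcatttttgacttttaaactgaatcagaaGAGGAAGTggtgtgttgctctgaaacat
The Bcl2a1a and Bcl2a1b stretches are identical. GAGGAAGT occurred in the windows of 4 members, the A1 copies and Bak1, and in 2.44% of 32851 promoters of the same length. A kappaB site of 10 letters occurred in Bcl2l1 and Mcl1 and in 1.41% of promoters, the GC box GGGGCGGGG in Bax, Bcl2, Bcl2l11 and Bid and in 10.4%, and TATAAA in 0 members and in 12.4%. Such matches describe letters in these windows and are not evidence of binding.

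Depth was even, with 33469858 to 38460873 counts per library. Values are given as CPM, counts per 1000000 after TMM scaling, and genes with an edgeR adjusted p (Benjamini-Hochberg) under 0.05 are said to be called, to rise or to fall. Kidney identity was clear in every library, as proximal tubule markers such as Lrp2 and Slc34a1 summed to between 4940 and 11800 CPM. The 6 leukocyte markers, among them Ptprc (CD45), summed to 54.7 to 77.3 CPM in Ctr, 333 to 584 in Lpr and 265 to 507 in DNase. All 6 leukocyte and all 9 T cell markers tested rose over Ctr in both MRL/lpr groups, as did 8 of 9 macrophage and monocyte markers in Lpr and 9 of 9 in DNase. Neutrophil markers rose at 3 of 6 tested in each, and B cell markers at 1 of 5 in Lpr and 4 of 6 in DNase. Of the markers of proximal tubule, thick ascending limb, distal tubule and collecting duct, podocyte, endothelium and fat, 0 were called in Lpr, and in DNase 1 of 7 proximal tubule and 1 of 3 podocyte markers rose and 1 of 3 distal markers fell. Without Lpr replicate 3, described next, 1 of 7 proximal tubule markers rose and 1 fell in Lpr, and 1 of 3 distal, 1 of 3 podocyte and 1 of 4 endothelium markers fell. These are whole kidneys, so more cells of a type and more RNA per cell cannot be told apart. Lpr replicate 3 stood apart, because long genes had relatively few counts in it: the slope of log2 CPM on log2 gene length, set against the mean of all libraries, was -0.393, where the other 10 libraries had slopes from -0.0433 to 0.0775. Values without this library are given beside the results of the 10 genes that it moves most.

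In Lpr kidneys 4 of the 10 genes were called against Ctr, all of them higher, where 10.2% of the 16074 genes tested were called, 7.27% higher and 2.92% lower. They were Bcl2a1a, Bcl2a1b, Bcl2a1d and the effector Bak1. The study's own rule also asks for an absolute log2 fold change above 2. The study used it with DESeq2, and here its thresholds were applied to the edgeR fit. It kept the 3 A1 copies, with 5.78% of all genes past it, 4.65% higher and 1.13% lower. All 4 Lpr kidneys lay above all 3 controls for 5 of the 10 genes, the 4 called and Mcl1, and below them for 0, where 25.6% of all genes had no overlap, 14.4% higher and 11.2% lower. The median log2 fold change over the 10 genes was 0.74, beside 0.03 over all genes tested. This median includes Lpr replicate 3 and lies between the values of Mcl1 and Bax, which were not called. The 3 A1 copies share much of their sequence, so in these counts and in the median they are not independent genes. Without Lpr replicate 3 the same 4 genes were called, while the share of all genes called was 17.8%, and 2 of them, Bcl2a1a and Bcl2a1b, passed the stricter rule.

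**Figure D1:**
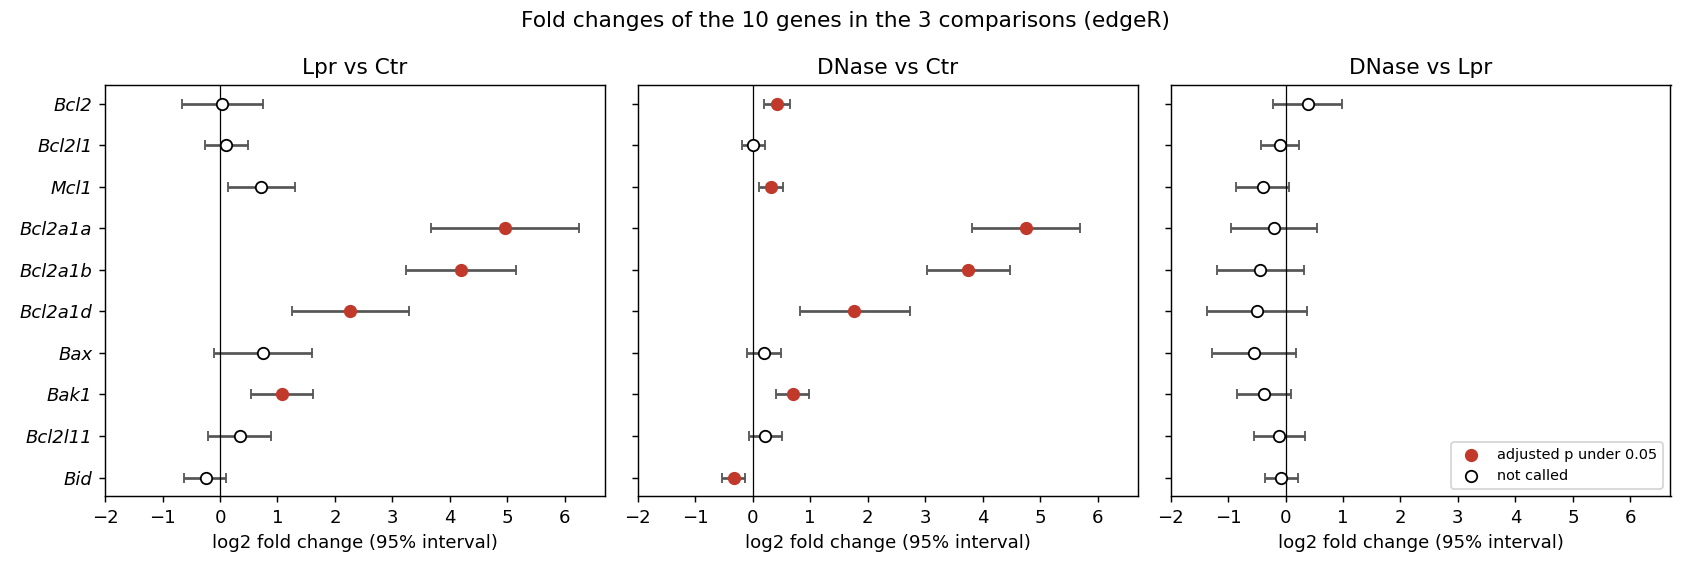
Log2 fold changes (x axis) of the 10 genes (y axis) in the 3 comparisons, with 95% intervals from edgeR and filled points for an adjusted p under 0.05. The A1 copies lie far to the right against Ctr, at 4.96, 4.20 and 2.27 in Lpr and 4.76, 3.75 and 1.77 in DNase, and no point is filled in DNase vs Lpr.

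The A1 genes, whose proteins keep activated leukocytes alive, showed the widest differences of the 10. Bcl2a1b measured 0.912, 0.638 and 0.779 CPM in the Ctr kidneys, 10.8, 16.9, 21.5 and 8.05 in Lpr, and 6.81, 9.30, 15.3 and 10.7 in DNase. Every MRL/lpr kidney lay above every control. Bcl2a1b rose 18.3-fold in Lpr (log2 fold change 4.20, SE 0.42, edgeR adjusted p = 0.000713) and 13.5-fold in DNase (3.75, SE 0.32, adjusted p = 4.76e-05). Bcl2a1a measured 0.0805, 0.223 and 0.3 CPM in Ctr, which is only 3, 7 and 10 counts, against 6.39, 5.66, 9.81 and 3.36 CPM in Lpr and 4.74, 4.10, 7.68 and 5.25 in DNase. It rose 31.2-fold in Lpr (95% interval 12.8 to 76.0, adjusted p = 0.00118) and 27.1-fold in DNase (14.1 to 52.1, adjusted p = 5.76e-05), and the few control counts make these intervals wide. Bcl2a1d measured 0.832, 0.638 and 0.390 CPM in Ctr, 3.21, 2.27, 4.66 and 1.91 in Lpr, and 1.27, 1.79, 3.51 and 1.93 in DNase. Its groups did not overlap Ctr either, and it rose 4.83-fold in Lpr (adjusted p = 0.0132) and 3.42-fold in DNase (adjusted p = 0.0151). The Bcl2a1d calls were lost without single controls: adjusted p was 0.0589 and 0.0637 in Lpr vs Ctr without Ctr replicate 2 or 3, and 0.0541 in DNase vs Ctr without Ctr replicate 3. The DNase call was also lost with a replicate block (adjusted p = 0.114). The Lpr fold changes of all 3 copies include Lpr replicate 3, the highest Lpr kidney for each. Without it the Lpr means were 5.14 CPM for Bcl2a1a, 11.9 for Bcl2a1b and 2.46 for Bcl2a1d, against 6.3, 14.3 and 3.01 with it.

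**Figure D2:**
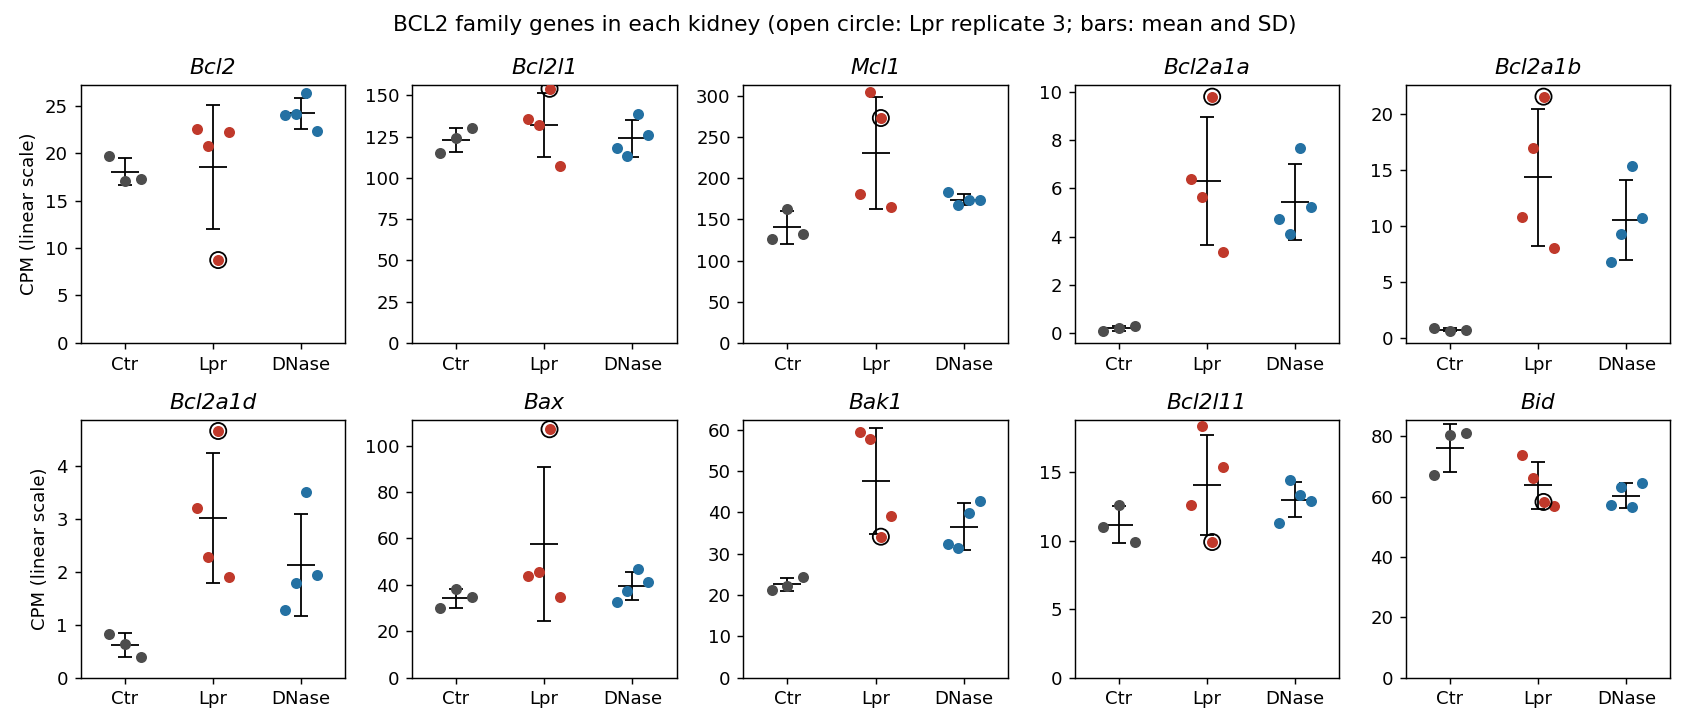
CPM (y axis, linear) of each of the 10 genes in every kidney of Ctr, Lpr and DNase, with the group mean and SD as bars and Lpr replicate 3 ringed. The A1 copies and Bak1 are higher in all 8 MRL/lpr kidneys than in the 3 controls, and the ringed kidney is the lowest of its group for Bcl2 at 8.73 CPM and the highest for Bax at 107.

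The sum over the 3 copies does not depend on how reads were split among them, although it can miss reads that fit several copies or Gm29094, a gene model that shares 401 exonic bases of Bcl2a1b on the same strand. Summed A1 counts came to 47 to 68 in Ctr, 468 to 1194 in Lpr and 465 to 1054 in DNase. The sum rose 14.8-fold in Lpr (log2 fold change 3.88, SE 0.37, adjusted p = 0.00064) and 11.3-fold in DNase (3.50, SE 0.28, adjusted p = 3.29e-05). The copies did not take equal parts. Bcl2a1d held 38.2% ± 10.2 (SD, n = 3) of the summed counts in Ctr, 13% ± 2.84 (n = 4) in Lpr and 11.4% ± 1.46 (n = 4) in DNase, and the groups did not overlap Ctr. Bcl2a1a held 13.2% ± 8.13 in Ctr, 26.7% ± 3.63 in Lpr and 30.6% ± 4.39 in DNase, and Bcl2a1b held 48.5% ± 5.40, 60.3% ± 6.20 and 58.0% ± 3.55. These shares were not tested and inherit the unknown handling of shared reads. In Ctr they rest on few counts, 13 to 31 for Bcl2a1d. Ctr is also another strain, so strain differences in the sequence of the copies and a change in their use cannot be told apart.

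The summed A1 level moved with the leukocyte markers. The 3 Ctr kidneys combined 1.47 to 1.82 CPM of A1 with 54.7 to 77.3 CPM of markers, and all 8 MRL/lpr kidneys had 12.8 to 35.9 CPM of A1 with 265 to 584 CPM of markers. Per 100 CPM of leukocyte markers, A1 came to 2.47 ± 0.239 CPM in Ctr (SD, n = 3), 5.72 ± 2.25 in Lpr (n = 4) and 4.78 ± 0.333 in DNase (n = 4). The Lpr kidneys measured 5.74, 4.25, 8.89 and 4.00 on this ratio, with the highest value in replicate 3, and the DNase kidneys 4.84, 4.43, 5.22 and 4.64. All 8 lay above the 2.30 to 2.74 of Ctr. The higher mean of Lpr than of DNase rests on Lpr replicate 3. Of the other Lpr kidneys, replicate 1 lay above all DNase kidneys, and replicates 2 and 4 lay below them. Relative to Ctr, this ratio was 2.32 times as high in Lpr, with replicate 3 included, and 1.94 times in DNase. The part of leukocyte content, kind of leukocyte and level per cell in this difference was not tested.

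**Figure D3:**
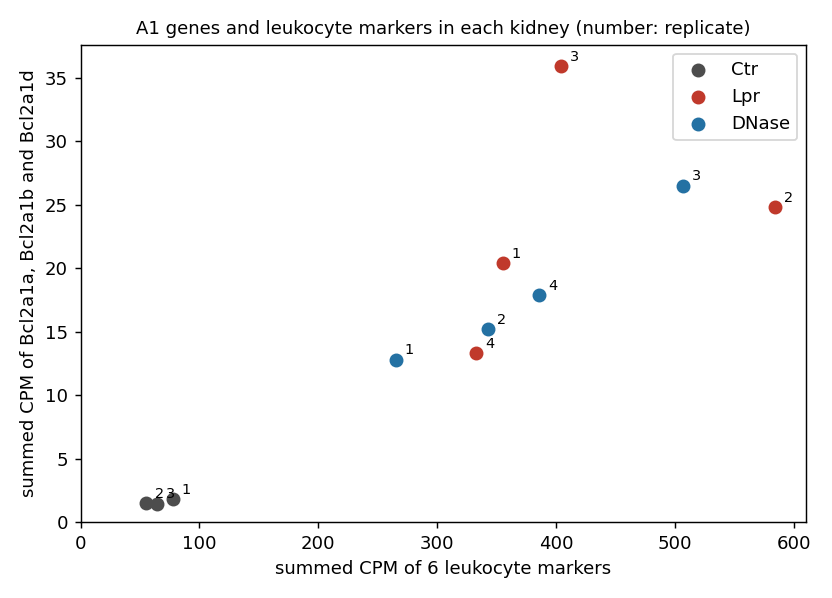
Summed CPM of the 3 A1 genes (y axis) against summed CPM of 6 leukocyte markers (x axis) in each kidney, numbered by replicate. The controls sit at 1.47 to 1.82 CPM of A1 near the origin, the Lpr and DNase kidneys mix with each other, and Lpr replicate 3 has the most A1, 35.9 CPM, at a marker sum of 404.

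Among the other pro-survival genes, Bcl2 (chr1:106538178-106714274, minus strand) measured 19.7, 17.1 and 17.3 CPM in Ctr, 22.5, 20.7, 8.73 and 22.2 in Lpr, and 24.0, 24.1, 26.3 and 22.3 in DNase. The DNase kidneys were all above Ctr, and 3 of 4 Lpr kidneys were too, with replicate 3 far below. Bcl2 rose 1.34-fold in DNase over Ctr (log2 fold change 0.42, SE 0.10, adjusted p = 0.013). In Lpr its log2 fold change was 0.04 (95% interval -0.67 to 0.75, adjusted p = 0.953). Without replicate 3 that value was 0.28 (adjusted p = 0.12), at a mean of 21.8 ± 0.948 CPM (SD, n = 3). The antisense gene D630008O14Rik overlaps 497 exonic bases of Bcl2, and 5.63% of the 100-base windows of Bcl2 occur in it.

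Mcl1 (chr3:95658788-95663176, plus strand) encodes a short-lived survival protein. It measured 126, 163 and 132 CPM in Ctr, 181, 304, 273 and 165 in Lpr, and 183, 167, 173 and 173 in DNase. Every MRL/lpr kidney was above every control, and Lpr replicates 2 and 3 were far above the rest. In Lpr the fold was 1.65 (log2 fold change 0.72, SE 0.25, adjusted p = 0.13), so the gene was not called. Mcl1 rose 1.24-fold in DNase, where the kidneys lay close together (log2 fold change 0.31, SE 0.10, adjusted p = 0.0462). That call was narrow and was lost in 11 alternatives, among them without Ctr replicate 1 or 3 or any 1 of the DNase kidneys (adjusted p 0.0695 to 0.202). Bcl2l1 (chr2:152780668-152831728, minus strand) lay between 107 and 154 CPM in all 11 kidneys. Its log2 fold change was 0.11 in Lpr (95% interval -0.27 to 0.48) and 0.01 in DNase (-0.19 to 0.21) against Ctr.

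Of the 2 effectors, Bak1 (chr17:27019810-27029009, minus strand) was higher in both MRL/lpr groups. It measured 21.2, 22.1 and 24.4 CPM in Ctr, 59.4, 57.7, 34.1 and 39.1 in Lpr, and 32.3, 31.3, 39.8 and 42.8 in DNase. No MRL/lpr kidney reached down to a control. Bak1 rose 2.11-fold in Lpr (log2 fold change 1.08, SE 0.24, adjusted p = 0.0219) and 1.62-fold in DNase (0.70, SE 0.13, adjusted p = 0.00382). The Lpr call was lost without any 1 of the Ctr kidneys (adjusted p 0.0719 to 0.111), without Lpr replicate 1 (0.0535) or 2 (0.0604), after correction for gene length (0.0546), and with a replicate block (0.0579). It strengthened without Lpr replicate 3 (log2 fold change 1.21, adjusted p = 0.00307). Of the 100-base windows of Bak1, 10.7% occur in Ggnbp1 on the opposite strand.

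Bax (chr7:45461697-45466898, minus strand) measured 30.0, 38.1 and 34.7 CPM in Ctr, 43.7, 45.6, 107 and 34.7 in Lpr, and 32.5, 37.2, 46.8 and 41.0 in DNase. Lpr replicate 3 alone carried the high Lpr mean of 57.7 ± 33.1 CPM (SD, n = 4), and the mean without it was 41.3 ± 5.81 (n = 3). The log2 fold change in Lpr was 0.75 (95% interval -0.10 to 1.60, adjusted p = 0.299) with all kidneys and 0.27 (adjusted p = 0.23) without replicate 3. In DNase it was 0.20 (-0.10 to 0.50, adjusted p = 0.33). Bax was not called in any comparison. Of its 100-base windows, 9.49% occur in Gm45808, a gene model on the same strand.

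Bcl2 and Bax are often read together as a balance of survival and death signals, and the difference of their log2 CPM was computed in each kidney. It was -0.61, -1.15 and -1 in Ctr, -0.95, -1.13, -3.61 and -0.64 in Lpr, and -0.44, -0.62, -0.83 and -0.88 in DNase. A single kidney, Lpr replicate 3, was apart, and the other 10 overlapped within -1.15 to -0.44. The Lpr mean was -1.58 ± 1.36 (SD, n = 4), or -0.91 ± 0.25 (n = 3) without that kidney, beside -0.92 ± 0.28 in Ctr and -0.69 ± 0.20 in DNase. The difference of means between Lpr and Ctr was -0.66 with all kidneys and 0.01 without it, and between DNase and Lpr 0.89 and 0.22. No test was made of this balance.

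**Figure D4:**
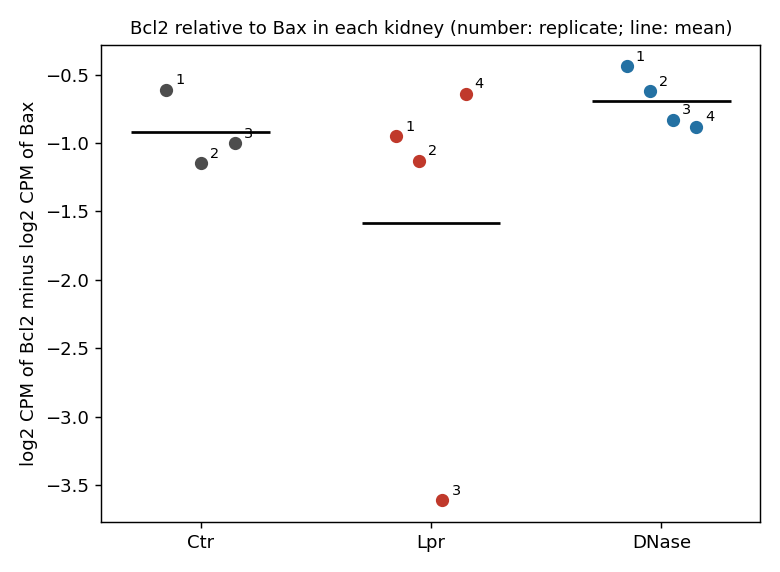
Log2 CPM of Bcl2 minus log2 CPM of Bax (y axis) in each kidney of the 3 groups, numbered by replicate, with group means as lines. Lpr replicate 3 lies at -3.61 and draws the Lpr mean to -1.58, below the other 3 Lpr kidneys.

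Both deviations of that kidney went the way its length trend went. Bax is short, 940 bases as implied by the deposited counts and FPKM, and Bcl2 is long, 7349 bases. Against the mean of the other 3 Lpr kidneys, Bax was 1.38 log2 units higher in replicate 3, where the trend over all genes of its length was 1.12, and Bcl2 was -1.32, where the trend was -0.58. The A1 copies, 764 to 796 bases, were 0.91 to 0.98 higher, with a trend of 1.23 to 1.26. Mcl1, 8725 bases, went the other way, 0.39 higher at a trend of -0.66, and Bak1, 2003 bases, was -0.58 at a trend of 0.48. Bcl2l1, 5528 bases, also went the other way, 0.31 higher at a trend of -0.42, as did Bid, 2401 bases, at -0.17 with a trend of 0.3. Bcl2l11, 9973 bases, was -0.62 at a trend of -0.71. The implied lengths of Mcl1, Bcl2l1 and Bcl2l11 are above their 3418, 4586 and 8029 exonic bases in GENCODE M21. Their places on the trend are therefore uncertain. Over the 10 genes, length and deviation had a Spearman rho of -0.685, and over 16500 genes -0.581, as a description of this library. What made the trend in this library was not tested.

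**Figure D5:**
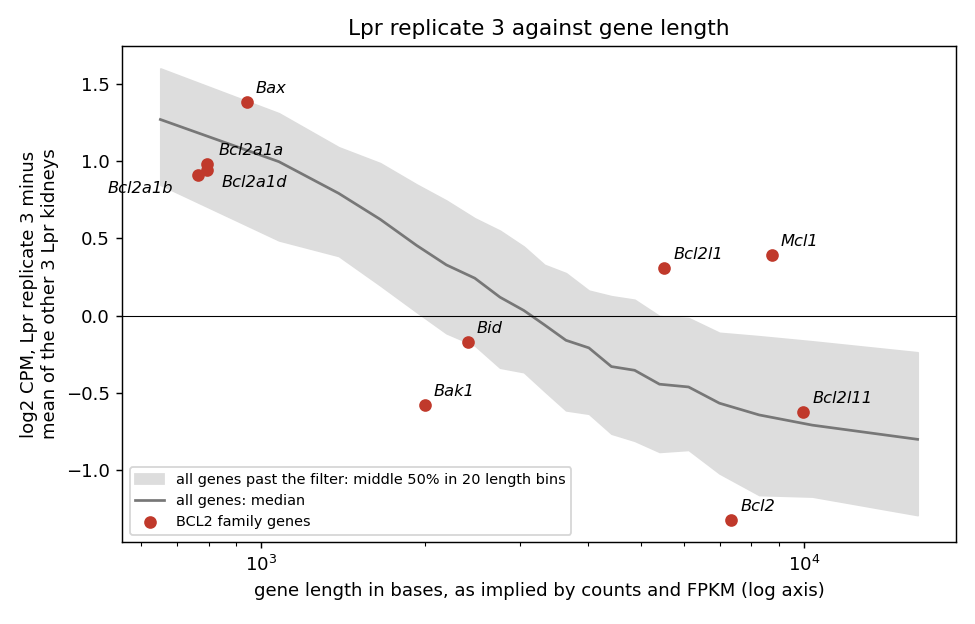
Difference in log2 CPM between Lpr replicate 3 and the mean of the other 3 Lpr kidneys (y axis) against gene length in bases (x axis, log), with the median and middle 50% of all genes in 20 length bins. Bax at 1.38 and the A1 copies at 0.91 to 0.98 sit at the short end and Bcl2 at -1.32 at the long end, while Mcl1 and Bcl2l1 lie above the band.

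The study's RT-PCR primers for this pair are shown because they read a part of each transcript rather than its whole length.
Bcl2 forward: gtggtggaggaactcttcaggg
Bcl2 reverse: gccggttcaggtactcagtcat
Bax forward: caggatgcgtccaccaagaa
Bax reverse: caaagtagaagagggcaaccac
The Bcl2 pair lay in 2 of 2 annotated transcripts and spans 154 bases, and the Bax pair lay in 3 of 6 and spans 196 bases. No RT-PCR values were used here.

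In the BH3-only group, Bid (chr6:120891930-120916853, minus strand) was the gene with lower levels. It measured 67.0, 80.5 and 80.9 CPM in Ctr, 73.7, 66.2, 58.2 and 57.0 in Lpr, and 57.3, 63.1, 56.5 and 64.4 in DNase. All DNase kidneys lay below Ctr, and Lpr overlapped it. Bid fell in DNase to 0.794 of Ctr (log2 fold change -0.33, SE 0.09, adjusted p = 0.0261), and in Lpr its log2 fold change was -0.25 (SE 0.16, adjusted p = 0.438). The DNase call was lost without Ctr replicate 2 (adjusted p = 0.077) or 3 (0.0909) and without DNase replicate 1 (0.0556) or 3 (0.0629). Bid shares 628 exonic bases with Bcl2l13, which runs on the opposite strand, and 22.9% of its 100-base windows occur there. Bcl2l13, a mitochondrial relative of the family, fell as well in DNase, from 69.2 to 52.1 CPM (log2 fold change -0.41, adjusted p = 0.00156). Whether counting used the strand is not given in the sources used here, so reads of the overlap cannot be told apart. Bcl2l11 (chr2:128126038-128162547, plus strand), which encodes BIM, lay between 9.90 and 18.4 CPM in all kidneys, with Lpr the widest group. The lowest value was that of Lpr replicate 3, and the Lpr mean was 14.1 CPM with it and 15.4 without it. The log2 fold change of Bcl2l11 was 0.34 in Lpr (adjusted p = 0.491) and 0.22 in DNase (adjusted p = 0.262). Leaving out 1 library at a time gave 0.16 to 0.47 in Lpr vs Ctr, with adjusted p 0.111 or higher.

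In the DNase kidneys 7 of the 10 genes were called against Ctr, 6 higher and Bid lower, where 21.7% of the 16100 genes tested were called, 13.1% higher and 8.61% lower. Beyond the 4 genes called in Lpr, which include the A1 copies with their shared sequence, these were Bcl2, Mcl1 and Bid. The DNase and Lpr comparisons share their controls, and the SE was smaller in DNase for each of these 3 genes (0.10, 0.10 and 0.09, against 0.31, 0.25 and 0.16 in Lpr). The stricter rule kept 2 genes, Bcl2a1a and Bcl2a1b, with 6.01% of all genes past it, 4.56% higher and 1.45% lower. The groups did not overlap for the 7 genes called, 6 above and 1 below, where 31.9% of all genes had no overlap, 18% higher and 13.9% lower. Leaving out 1 library at a time left 4 to 6 of the 10 called, where 16.5% to 21.5% of all genes were called. It left 4 when Ctr replicate 3 was left out, where 17.5% of all genes were called. A fit over all 3 groups left the A1 copies alone, 3 of 10, where 11.4% of all genes were called.

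Between DNase and Lpr, which asks directly about treatment in the same strain, 0 of the 10 genes were called, where 0% of the 15832 genes tested were called by edgeR and 5.6% had an unadjusted p under 0.05. DESeq2 called 24 genes and 0 of the 10. Of the 10 genes, 0 had an unadjusted p under 0.05 and 0 were free of overlap between the groups, where 3.79% of all genes were, 1.92% higher and 1.87% lower. Bax had the widest log2 difference, -0.55 (95% interval -1.28 to 0.19, adjusted p = 0.854), which was -0.07 without Lpr replicate 3. Next came Bcl2a1d at -0.49 (-1.36 to 0.37), Bcl2a1b at -0.44 (-1.19 to 0.32), Mcl1 at -0.40 (-0.86 to 0.06), Bcl2 at 0.39 (-0.21 to 0.99), Bak1 at -0.37 (-0.84 to 0.09) and Bcl2a1a at -0.20 (-0.94 to 0.54). Without Lpr replicate 3 these values were -0.21 for Bcl2a1d, -0.18 for Bcl2a1b, -0.32 for Mcl1, 0.15 for Bcl2, -0.51 for Bak1 and 0.08 for Bcl2a1a, and 0 of the 10 genes were called. Bcl2l11, Bcl2l1 and Bid lay between -0.11 and -0.07. The summed A1 counts differed by -0.38 (-1.08 to 0.33, adjusted p = 0.854). With all kidneys, the values of 9 genes were negative and that of Bcl2 positive, with a median of -0.29 beside -0.02 over all genes. Without Lpr replicate 3, Bcl2a1a was positive as well, and the negative values of Bax, Bcl2a1b and Bcl2a1d were nearer to no change. The A1 copies share much of their sequence, so they are not independent genes in this count of signs. All 10 intervals include 0 and reach past the values seen, so they do not show equal levels. For the genes called in DNase but not in Lpr against Ctr, this comparison is the test of the difference, and none of Bcl2, Mcl1 and Bid passed it.

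Per length, on the FPKM scale, Bax led in each group, at 35.2 ± 3.51 in Ctr (SD, n = 3), 59.7 ± 30.5 in Lpr (n = 4) and 43.3 ± 6.63 in DNase (n = 4), and Bid came next at 30.6, 26.4 and 25.9. In Ctr the order went on with Bcl2l1 at 21.5, Mcl1 at 15.5, Bak1 at 10.9, Bcl2 at 2.37, Bcl2l11 at 1.08, Bcl2a1b at 0.985, Bcl2a1d at 0.751 and Bcl2a1a at 0.244. Neighbours that overlapped in Ctr were Bax and Bid, Bcl2l11 and Bcl2a1b, and Bcl2a1b and Bcl2a1d. Of the A1 copies, Bcl2a1a and Bcl2a1b stood higher in the order of the MRL/lpr groups, and Bcl2a1d stood at 9 of 10 in Ctr and DNase and at 8 in Lpr. Bcl2a1b stood eighth in Ctr and sixth in both MRL/lpr groups, at 18.4 ± 7.13 FPKM in Lpr and 14.2 ± 4.84 in DNase, and Bcl2a1a went from last to seventh, at 7.75 ± 2.88 and 7.07 ± 2.06. Both lay above Bcl2 without overlap in these groups, which had 2.54 ± 0.965 and 3.40 ± 0.27. In Lpr all neighbours below Bax overlapped, and Bcl2l11 was last in both groups, at 1.41 and 1.35 FPKM. This order rests on the gene lengths behind the deposited FPKM. For Mcl1 the implied length, 8725 bases, is above its 3418 exonic bases in GENCODE M21. A shorter length would place Mcl1 higher, so its place and the lead of Bax are uncertain.

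Genes that varied most like each member over the 11 kidneys, by Pearson's r of log2 CPM, were picked by rank, 3 for most members. These values are a description, since group differences and the length trend of Lpr replicate 3 enter every r. Bcl2a1b was closest to Ctss (cathepsin S of antigen-presenting cells, r = 0.996), Cd300c2 (0.995) and Coro1a (0.995), the last a leukocyte marker. Bcl2a1a was closest to Calhm6 (0.988), AU020206 (0.985) and Cd8a (0.985), and Bcl2a1d to Pilrb2 (0.968), Psme1 (0.964) and Alox5ap (0.959). Bak1 was closest to Rnf19b (0.985), Ccl6 (0.970) and Parp12 (0.966). Mcl1 was closest to Rrad (0.973), Nfil3 (0.973) and Cebpb (0.970), and Bcl2l11 to Tox (0.955), Picalm (0.934) and Uri1 (0.933). Bax was closest to Sec11a (0.986), Ppp4c (0.981) and Med11 (0.981), and Bcl2 to Zbtb7a (0.965), Mitf (0.965) and Arid3a (0.963). Bid was close to Rnf24 (0.941) and Gclc (0.934), and Bcl2l1 was closest to Ccl17 (0.900), Cenph (0.897) and LOC108167594 (0.890). Among the 10 themselves, Bcl2a1a and Bcl2a1b had an r of 0.971, and Bcl2 and Bax one of -0.758.

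Of 13 other BCL2 family genes tested, 0 were called in Lpr vs Ctr, and in DNase vs Ctr 2 rose and 1 fell (3 of 13, where 21.7% of all genes were called). The 2 that rose were Bcl2l15, at 0.384 CPM against 0.0794 in Ctr (log2 fold change 2.25, adjusted p = 0.0381, and 2.17 in Lpr), and Bik, a BH3-only gene, at 11.4 CPM against 7.99 in Ctr (0.52, adjusted p = 0.0118, and 0.69 in Lpr). Bcl2l15 had only 1 to 4 counts in the Ctr kidneys and 5 to 23 in DNase, so the size of its rise is uncertain. The 1 that fell was Bcl2l13. Downstream of the mitochondrion, 0 of 10 genes of cytochrome c release and the apoptosome were called in Lpr and 3 in DNase: Apaf1, the apoptosome scaffold, rose (0.68, adjusted p = 0.0255, and 0.82 in Lpr), as did the protease Htra2 (0.39, adjusted p = 0.0294, and 0.53 in Lpr), and the initiator caspase Casp9 fell. Casp9 measured 33.9 to 38.8 CPM in Ctr, 12.6 to 27.5 in Lpr and 22.5 to 25.6 in DNase, so neither MRL/lpr group reached Ctr. Its log2 fold change was -0.57 in DNase (adjusted p = 0.00127) and -0.71 in Lpr (adjusted p = 0.154), with the lowest value again in Lpr replicate 3.

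Of 9 inhibitors of apoptosis, 0 were called in Lpr, and 4 rose in DNase: Naip6 (1.86, adjusted p = 0.0208), Birc5 (1.40, adjusted p = 0.0285), which also marks dividing cells, Naip2 (1.01, adjusted p = 0.0121) and Birc3 (0.70, adjusted p = 0.00344). Their log2 fold changes in Lpr were 1.54, 2.59, 0.97 and 0.98, with wider SE (0.53, 0.72, 0.41 and 0.32, against 0.47, 0.38, 0.23 and 0.12 in DNase) and adjusted p from 0.058 to 0.21. In DNase vs Ctr 13.1% of all genes rose. The Naip genes are close paralogs, so their counts are uncertain. Of 10 genes of the p53 pathway, which includes inducers of Bax, 0 were called in Lpr, and in DNase Cdkn1a (0.66, adjusted p = 0.0063) and Aen (0.50, adjusted p = 0.0163) rose, a share near that of all genes. In Lpr their log2 fold changes were 1.73 (adjusted p = 0.0564) and 0.42 (adjusted p = 0.326).

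NF-kappaB can drive transcription of the A1 genes in leukocytes, and whether it did so in these kidneys was not tested. Of its 5 subunit genes, 2 rose in Lpr and 4 in DNase, where 7.27% and 13.1% of all genes rose. Relb rose by a log2 fold change of 1.45 in Lpr (adjusted p = 0.0138) and 1.03 in DNase (adjusted p = 0.000468), and Nfkb2 by 0.91 (adjusted p = 0.026) and 0.63 (adjusted p = 0.00671). Rel (0.80, adjusted p = 0.00947) and Nfkb1 (0.45, adjusted p = 0.0101) rose in DNase, and their values in Lpr were 1.68 (adjusted p = 0.116) and 0.46 (adjusted p = 0.146). Receptors of survival cytokines stood out more: 6 of 7 rose in each group. Csf3r, the G-CSF receptor of neutrophils, rose by 3.97 in Lpr (adjusted p = 0.00223) and 3.88 in DNase (adjusted p = 6.51e-05), and Il7r, through which T cells sustain BCL2, by 3.80 (adjusted p = 0.00241) and 3.81 (adjusted p = 0.000157). Il2rb rose by 3.30 (adjusted p = 0.006) and 2.94 (adjusted p = 2.42e-05), and Csf2rb by 2.97 (adjusted p = 0.00276) and 2.62 (adjusted p = 0.00011). These receptors are made by leukocytes, and leukocyte markers rose in the same kidneys. Csf3r is itself on the list of neutrophil markers and is among those that rose, so the 2 lists are not separate. The part of leukocyte content in the receptor values was not tested. Between DNase and Lpr, 0 genes of these pathway lists and of the 11 marker lists were called. Without Lpr replicate 3, 17.8% of all genes were called in Lpr vs Ctr. The calls then came to 3 of 9 inhibitors, 4 of 5 NF-kappaB subunits, 6 of 7 receptors and 1 of 10 p53 pathway genes. Of 10 mitochondrial genes 1 was called higher and 1 lower, and 0 of 12 other family genes were called.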

How the data were processed

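Total RNA of 11 mouse kidneys was sequenced as 100 bp paired-end reads. Per the labels and the study's methods, the authors used fastp, HTSeq (version 0.6.0) and DESeq2 with R 3.2.0 on mm10. The methods name HTSeq for placing reads on reference genes, and the strand setting is not given in the sources used here. The deposited table holds raw counts per gene, and the authors also deposited FPKM values. From the counts, each pair of groups was fitted with edgeR 4.0.16 (R 4.3.3) under filterByExpr and TMM, with the quasi-likelihood test and Benjamini-Hochberg adjustment over all genes tested. CPM used TMM over 16500 genes, and log2 CPM a prior count of 2. FPKM served for levels between genes, implied gene lengths and a limma (3.58.1) alternative on log2 FPKM, with a pseudocount of 1 or 0.1, for genes whose mean FPKM was 0.5 or more. DESeq2 1.42.0, other scalings, no filter, a joint fit, a length correction and left-out libraries were further alternatives. The scripts were tested on simulated data. Replicates differed by more than sampling noise (chi-square per degree of freedom 17.5 to 393). The labels number kidneys of each group as separate samples. The pathway lists, the 11 marker lists and the 10 genes were chosen with earlier results of these data known. Outside the 10 genes, up to 4 called genes a list with the largest fold were named, and Casp9 always. Some results are not reported here. Bcl2a1c and protein sequences were not analysed here.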

Additional observations from a re-analysis of the deposited data

Results flagged for a closer look

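Each of the 10 genes was checked for a kidney far from the rest of its group by Dixon's test, which applies to the groups of 4 (20 tests, where chance gives about 1 in 20), and 2 results passed its 95% critical value. Both were in Lpr replicate 3. Bcl2 measured 8.73 CPM there, and the nearest of the other Lpr kidneys 20.7, a gap of 0.87 of the range of the group. Bax measured 107 CPM there, and the nearest 45.6, a gap of 0.849 of the range. This is the library whose counts fall with gene length, and the part of that trend in these 2 values was not tested beyond the values given with gene length and without the kidney.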

How the results depend on the processing

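Over the alternative fits, 445 of 493 fold changes kept direction and side of the threshold, 33 lost the call, 1 gained it and 14 changed sign, all of these uncalled. Bcl2a1a and Bcl2a1b were called against Ctr in all. The count of genes called in Lpr vs Ctr (1639) was 2460 with DESeq2, 2555 with all 3 groups in 1 fit, and 852 to 2824 with 1 library left out (852, 911 and 915 without Ctr replicates 1, 2 and 3, and 2824 without Lpr replicate 3), with 2 to 4 of the 10 genes, 2 without Ctr replicate 2 or 3, and 2 to 3 by the stricter rule. In DNase vs Ctr (3493) it was 1889 with all 3 groups in 1 fit and 1869 with a replicate block, both with 3 of the 10 genes, and 2690 to 3425 with 1 library left out, with 4 to 6 genes. In DNase vs Lpr (0) DESeq2 called 24. Replicate numbers did not pair the kidneys (r of same-numbered deviations -0.277 to 0.159, 1 of 10 above 0.1). A replicate block gave 1268 genes and 3 of the 10 in Lpr vs Ctr, without Bak1 (adjusted p = 0.0579), and 0 in DNase vs Lpr.

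The values that changed sign were near 0. For Bcl2 in Lpr vs Ctr (0.04) they were -0.16 with the replicate block and -0.01 on log2(FPKM + 0.1), and leaving out 1 library gave -0.06 to 0.28. For Bcl2l1 in DNase vs Ctr (0.01) they were -0.0038 with DESeq2 or its size factors and -3e-04 with the replicate block, and leaving out 1 library gave -0.05 to 0.05. In DNase vs Lpr, Bcl2a1a was 0.02 after the length correction, and leaving out 1 library gave -0.42 to 0.08 for Bcl2a1a, -0.25 to 0.04 for Bcl2l11 and -0.12 to 0.01 for Bid. Mcl1 was called in Lpr vs Ctr with all 3 groups in 1 fit (0.71, adjusted p = 0.0364). In that fit Bcl2 (adjusted p = 0.439), Mcl1 (0.478), Bak1 (0.0508) and Bid (0.14) lost their calls in DNase vs Ctr. The causes were not tested. With 3 controls, and 3 to 10 counts of Bcl2a1a in each, fold sizes against Ctr are imprecise.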
